A study of Rattus norvegicus with 17 samples.

Results

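The 7 control libraries of a rat drug study are described here by the level of each gene, by its spread over the libraries, and by the cell types that its marker genes show. They were chosen as all samples labelled 20 mg/kg PEG and control, and they make up 7 of the 17 libraries of the series. No contrast with a treated sample was made. The values covered 14506 genes, each with 1 probe set.

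The labels give all 7 samples the strain Sprague-Dawley white eye/Wistar-Kyoto, an age of 8 months and the genotype p27Kip1 (Cdknb1) mutant, homozygous. Cdknb1 is the labels' spelling of Cdkn1b, and the study's design text calls the mutants heterozygous instead. Replicates 1 to 5 came from females and replicates 6 and 7 from males. All 7 received PEG as the control for NVP-BEZ235, an inhibitor of PI3K and mTOR, which the other 10 samples received, although a further label field says that there was no treatment. No wild-type animal was analysed here, so no value below can be read as an effect of the mutation. Nothing in the labels states that each library is a separate tumour or animal. The p-values rest on the spread between these samples, and whether that is a spread between animals is not known. The tissue label names a pituitary adenoma in every control library, whereas the title of the series names pheochromocytoma. The marker genes below went against the tissue label, and the samples are therefore called the control libraries.

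Cdkn1b encodes p27, an inhibitor of the cyclin-dependent kinases that drive cells into DNA replication. Rats that lack p27 function develop tumours of several endocrine glands, among them adrenal pheochromocytomas and pituitary adenomas. A pheochromocytoma arises from chromaffin cells of the adrenal medulla, which make catecholamines from tyrosine and store them with chromogranins in dense-core granules. The adrenal cortex around the medulla makes steroid hormones from cholesterol, and the pituitary makes peptide hormones such as prolactin and growth hormone.

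The 4 marker genes chosen to describe these libraries are the medullary enzymes Th and Dbh and the cortical genes Star and Cyp11a1. Tyrosine hydroxylase (Th) catalyses the rate-limiting step of catecholamine synthesis, and dopamine beta-hydroxylase (Dbh) converts dopamine to noradrenaline. The steroidogenic acute regulatory protein (Star) brings cholesterol into mitochondria, where the side-chain cleavage enzyme Cyp11a1 makes pregnenolone from it. RefSeq promoters of 3 of them are printed from 250 bases before to 50 bases after the start in the GRCr8 build, since these promoters belong to genes at the top of both programmes. They lie at chr1:207508169-207508468 on the minus strand for Th, at chr3:30886078-30886377 on the plus strand for Dbh and at chr8:67318415-67318714 on the plus strand for Cyp11a1. Capitals mark the cyclic AMP response element TGACGTCA in Th and the nuclear receptor motif AGGTCA in Cyp11a1.
Th: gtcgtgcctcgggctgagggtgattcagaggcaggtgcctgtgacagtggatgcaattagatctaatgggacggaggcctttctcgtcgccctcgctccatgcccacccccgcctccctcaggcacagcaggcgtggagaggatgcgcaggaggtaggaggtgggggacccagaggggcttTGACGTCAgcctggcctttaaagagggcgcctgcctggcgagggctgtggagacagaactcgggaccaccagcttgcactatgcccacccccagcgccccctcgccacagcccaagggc
Dbh: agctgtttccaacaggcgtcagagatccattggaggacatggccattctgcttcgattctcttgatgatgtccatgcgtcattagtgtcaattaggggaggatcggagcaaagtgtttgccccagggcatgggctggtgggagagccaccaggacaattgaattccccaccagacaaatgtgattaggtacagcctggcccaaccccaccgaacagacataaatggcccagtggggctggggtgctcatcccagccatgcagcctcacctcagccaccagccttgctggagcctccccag
Cyp11a1: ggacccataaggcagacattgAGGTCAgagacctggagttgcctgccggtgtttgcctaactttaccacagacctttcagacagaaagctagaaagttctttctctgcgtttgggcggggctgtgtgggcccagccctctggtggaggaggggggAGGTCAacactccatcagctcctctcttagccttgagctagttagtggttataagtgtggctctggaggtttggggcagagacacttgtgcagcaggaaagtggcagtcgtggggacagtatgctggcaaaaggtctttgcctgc

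Both motifs were searched on both strands, AGGTCA also as TGACCT. The Th promoter held TGACGTCA once, starting 69 bases before the start, and 1.83% of the 33365 promoters of the table hold it. The Cyp11a1 promoter held AGGTCA 2 times, 229 and 95 bases before the start, and 16.2% of all promoters hold that motif at least once. The Dbh window held neither. A match describes letters only.

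Levels are log2 values from robust multi-array averaging (RMA), a method that corrects, normalizes and sums probe intensities. Probe sets differ in affinity, so a level is read only against the quartiles of the 14506 genes, whose lower quartile was 4.14, median 5.79 and upper quartile 7.38. The 7 libraries were alike in scale, with array medians from 4.95 to 5.10 over all probe sets. Their 21 pairwise correlations over genes ran from 0.958 to 0.989 with a median of 0.968, and genes are not independent replicates. Replicates 6 and 7 formed the most similar pair, and replicate 4 had the lowest mean correlation with the others, 0.964. The standard deviation (SD) of all probe sets within an array was 2.21 in replicate 6, 2.18 in replicate 7 and 2.14 in replicate 5. In the others it was 2.04 to 2.11.

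The highest levels belonged to housekeeping genes and to both adrenal programmes. Of the 100 highest genes, 46 were ribosomal protein genes, 6 were listed chromaffin markers, 5 were listed adrenal cortex markers, 3 belonged to the list of 22 measured respiratory chain genes and none was a listed pituitary hormone gene. These counts cover the listed genes only, and other subunits of the chain, such as Cox6a1 and Cox8a, were also among the 100. After ribosomal protein genes were set aside, the 25 highest held general genes such as Gapdh at 12.84 ± 0.29, the ferritin heavy chain Fth1 at 12.33 ± 0.07 and the elongation factor Eef1a1 at 12.27 ± 0.08 (log2, mean ± SD, n = 7, as for all levels below). Others among the 25 were the beta-2-microglobulin gene B2m, the ferritin light chain Ftl1, the RNase P RNA Rpph1, Ldha, Gnas, Hsp90ab1, Hspa8, Ppia, Atp5mc3, Tecr, Itm2b and Mgp. The rest were Chgb, Dbh, Th, Chga, Scg2, Fdx1, Cyp11a1, Star, Akr1b7 and the matrix proteoglycan gene Dcn at 11.80 ± 0.27. Of 73 ribosomal protein symbols 69 lay above the upper quartile, with a median level of 11.56.

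The medullary programme stood high in every library. Of 20 listed chromaffin genes 16 were measured, and 13 of them lay above the upper quartile, which 25% of all genes pass by definition. Their median was 10.25, against 5.79 over all genes. The other 4 were not analysed here.

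Th was at 12.02 in replicate 1, 12.34 in 2, 12.25 in 3, 11.99 in 4, 11.46 in 5, 12.29 in 6 and 12.32 in 7, with a mean of 12.10 ± 0.31. Dbh was at 12.37, 12.59, 12.41, 12.41, 11.70, 12.10 and 12.17 in the same order, with a mean of 12.25 ± 0.29. Replicate 5 was lowest for both enzymes, and the highest library exceeded it by 1.84-fold for each. The chromogranins of the granule matrix varied less: Chgb was at 12.43 ± 0.10, from 12.32 to 12.56.

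The other steps of catecholamine handling were present at different levels. Ddc, which makes dopamine, was at 10.84 ± 0.32, and Gch1, which supplies the cofactor of tyrosine hydroxylase, at 8.98 ± 0.29. Cyb561, the granule's electron carrier, was at 11.75 ± 0.26, and the noradrenaline transporter Slc6a2 at 9.27 ± 0.44. The vesicular transporters differed in how evenly they stood over the libraries. Slc18a1 was at 9.78 ± 0.28. Slc18a2 lay between 5.24 and 6.26 in replicates 1 to 5, at 6.86 in replicate 7 and at 7.92 in replicate 6. The receptor tyrosine kinase gene Ret, a proto-oncogene of this lineage, was likewise highest in replicates 6 and 7: it lay between 5.13 and 5.57 in replicates 1 to 5, at 6.11 in replicate 7 and at 8.08 in replicate 6. Of the lineage's transcription factors, Gata3 was at 10.72 ± 0.48, Hand2 at 9.73 ± 0.39 and Phox2a at 7.06 ± 0.35.

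The cortical programme also stood high in every library. Of 17 listed cortex genes 14 were measured, 11 lay above the upper quartile, and the median was 10.73. Hsd3b1, Nr5a1 and Fdxr were not analysed here. Star was at 12.30 in replicate 1, 11.93 in 2, 12.06 in 3, 11.89 in 4, 11.88 in 5, 11.99 in 6 and 12.18 in 7, with a mean of 12.03 ± 0.16. Cyp11a1 was at 12.47, 12.25, 12.08, 12.31, 11.94, 12.02 and 12.10 in the same order, with a mean of 12.17 ± 0.19. Both were highest in replicate 1 and lowest in replicate 5, with 1.33-fold between those libraries for Star and 1.45-fold for Cyp11a1. In bulk tissue, fewer cells of a type and less RNA per cell cannot be told apart.

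Later steps of steroid synthesis spread further. Cyp21a1, the steroid 21-hydroxylase, ran from 10.96 in replicate 5 to 12.49 in replicate 1, and its median was 11.77. Cyp11b1, which makes corticosterone in the zona fasciculata, was at 10.82 ± 0.32. Cyp11b2, the aldosterone synthase of the zona glomerulosa, lay between 8.00 and 8.94 in replicates 2 to 7 and at 9.9980 in replicate 1. These enzymes are close relatives, and shared hybridisation of their probes cannot be told apart from expression. The ACTH receptor Mc2r likewise lay between 9.61 and 10.32 in replicates 2 to 7 and at 11.45 in replicate 1, and its partner Mrap was at 10.26 ± 0.40. Fdx1, the electron donor of mitochondrial steroid enzymes, was at 12.28 ± 0.14, and Akr1b7, an ACTH-responsive reductase of the fasciculata, at 11.83 ± 0.29. Cyp11b3 and Nr0b1 lay below the median of all genes at 3.98 ± 0.30 and 5.01 ± 0.57.

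**Figure D1:**
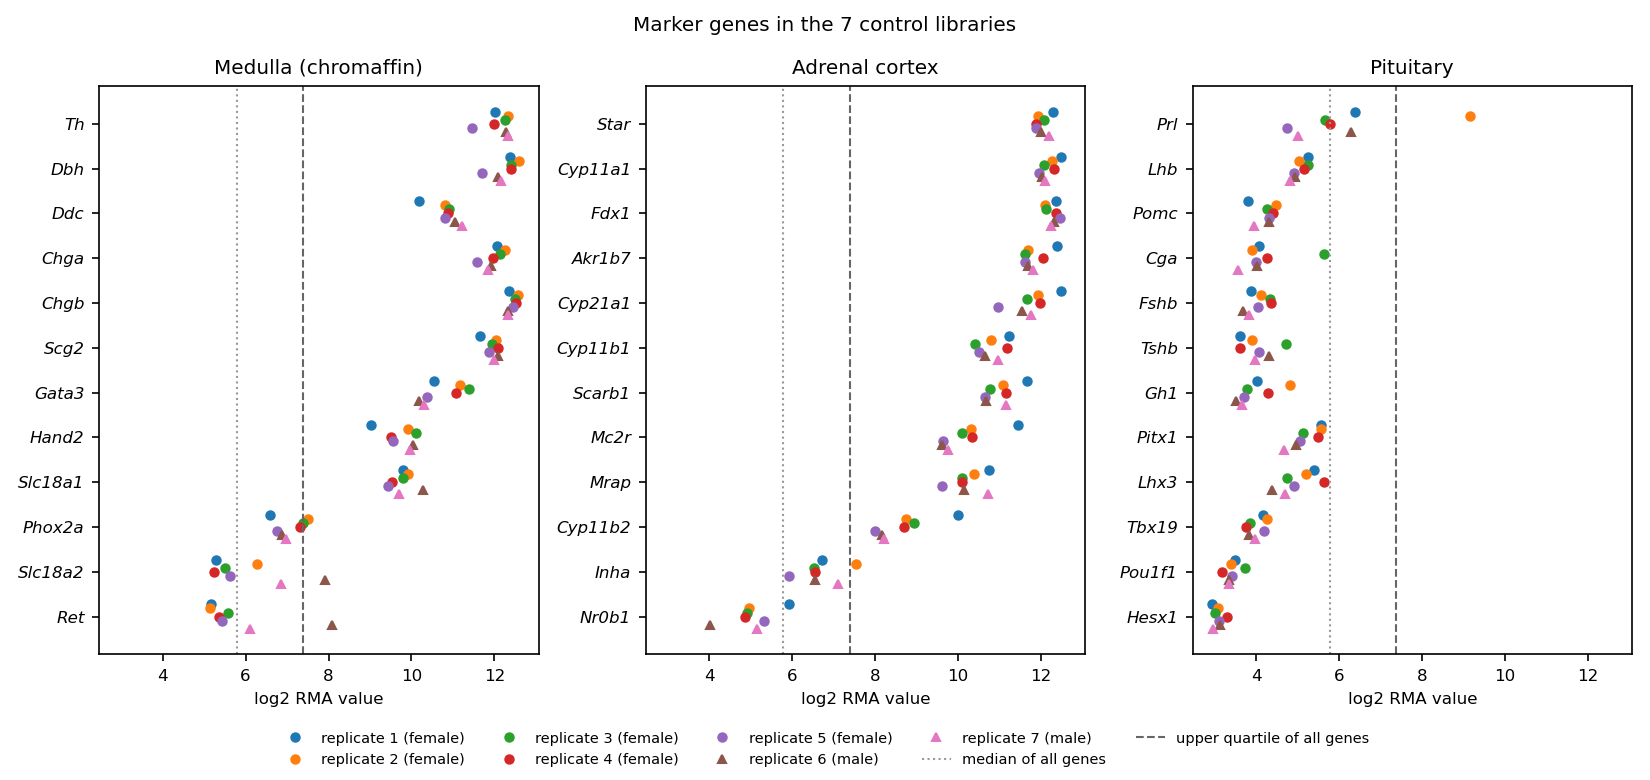
Log2 RMA value of 12 chromaffin, 12 adrenal cortex and 12 pituitary genes; each point is 1 control library (circles female, triangles male), and the lines mark the median and upper quartile of the 14506 genes. Th, Dbh, Star and Cyp11a1 lie above 11.4 in all 7 libraries, whereas the pituitary genes lie below the upper quartile except Prl in replicate 2.

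Most cortical genes had their highest value in the same library. Replicate 1 was the highest library for 11 of the 14 cortex genes, against 15.4% of all genes, and replicate 5 the lowest for 8 of the 14, against 1893 of all 14506 genes. The median of the list was 11.48 in replicate 1 and between 10.36 and 10.91 in the others. Of the glomerulosa list, which shares Cyp11b2 with the cortex list, 6 of 9 genes were highest in replicate 1. Among them was the endocytic adaptor gene Dab2 at 10.19, against a mean of 8.97 over all 7 libraries. The most variable member was the angiotensin receptor Agtr1b, at 4.32 in replicate 4 and between 6.42 and 7.52 in the others. Endothelial genes were highest in replicate 1 for 6 of 11, against the same 15.4% of all genes. Genes of sympathetic neurons showed the reverse: replicate 1 was lowest for 8 of 11, against 14.2% of all genes, and the list's median ran from 6.47 there to 8.41 in replicate 7. Of the 16 chromaffin genes, 6 were lowest in replicate 1 and 6 in replicate 5, against 14.2% and 13% of all genes. Replicate 2 was the highest library for 7 of the 16, against 13.9% of all genes.

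Medullary and cortical genes were compared over the libraries in 5 pairs, and none of the correlations passed an exact permutation test. For Th and Dbh, Pearson's r was 0.69 (exact p = 0.10, adjusted p = 0.26) and Spearman's rho 0.43 (exact p = 0.35, adjusted p = 0.44). Without replicates 4 and 5, the libraries farthest from the median of Th, r was -0.07. Without replicate 5 alone r was -0.18, and with any other single library left out it lay between 0.64 and 0.81. For Dbh and Cyp11a1, r was 0.70 (exact p = 0.073, adjusted p = 0.26), rho 0.57 (exact p = 0.20, adjusted p = 0.44), and r was 0.29 without replicates 5 and 6. For Star and Cyp11a1, r was 0.44 (exact p = 0.32, adjusted p = 0.40), rho 0.43 (exact p = 0.35, adjusted p = 0.44), and r was -0.24 without replicates 1 and 7. For Cyp11b1 and Cyp11b2, r was 0.50 (exact p = 0.26, adjusted p = 0.40), rho 0.36 (exact p = 0.44, adjusted p = 0.44), and r was 0.68 without replicates 1 and 3. For Th and Star, r was 0.32 (exact p = 0.47, adjusted p = 0.47), rho 0.39 (exact p = 0.40, adjusted p = 0.44), and r was -0.77 without replicates 4 and 5. All tests were two-sided. Over the females alone r was 0.96 for Th and Dbh, with 5 libraries and no test, and a value within 2 males cannot be had.

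Pituitary genes were low. None of the 7 hormone genes and none of the 11 pituitary transcription factor and receptor genes that were measured had a mean above the upper quartile, and the list medians were 4.21 and 4.07. Growth hormone (Gh1) was at 3.97 ± 0.45, the ACTH precursor Pomc at 4.22 ± 0.25, the gonadotropin subunits Lhb and Fshb at 5.05 ± 0.17 and 4.04 ± 0.26, the shared glycoprotein subunit Cga at 4.21 ± 0.67 and the thyrotropin subunit Tshb at 4.03 ± 0.39. Pou1f1, the factor of somatotrophs and lactotrophs, was at 3.42 ± 0.17, and Tbx19, the factor of corticotrophs, between 3.75 and 4.26. Prolactin (Prl) was the exception among the hormones. It was at 6.38 in replicate 1, 9.16 in 2, 5.66 in 3, 5.77 in 4, 4.75 in 5, 6.29 in 6 and 5.01 in 7. In replicate 2, the library with the high Prl, Gh1 was at 4.81, Pou1f1 at 3.38 and Pitx1 at 5.56. Of the posterior pituitary genes, vasopressin (Avp) was at 6.01 ± 0.25 and oxytocin (Oxt) at 6.23 ± 0.37, both above the median of all genes and under the upper quartile.

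Other cell types left weaker or partial marks. Of 11 endothelial genes 5 lay above the upper quartile, led by the VEGF receptor Kdr at 8.55 ± 0.29, and all 11 above the median, which 50% of genes pass. Of 12 fibroblast and pericyte genes 5 lay above the upper quartile. Among them the pericyte gene Rgs5 had the largest spread, at 9.21 in replicate 5, 9.33 in 1, 9.87 in 4, 9.97 in 2, 11.02 in 3, 11.45 in 7 and 11.73 in 6. Of the fibrillar collagens, Col1a1 was at 6.63 ± 0.11, above the median of all genes, and Col3a1 at 5.64 ± 0.22, below it. The Schwann and sustentacular list had 1 of 9 genes above the upper quartile, the myelin gene Mbp at 7.57 ± 0.46, whereas Sox10 was at 5.30 ± 0.32 and Gfap at 3.94 ± 0.14. S100b, often used for sustentacular cells, ran from 5.38 in replicate 2 to 7.72 in replicate 7.

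Immune marks were those of macrophages and antigen presentation. Of 12 macrophage genes 5, and of 8 class II genes 6, lay above the upper quartile, with the complement gene C1qc at 9.90 ± 0.20 and the invariant chain Cd74 at 11.16 ± 0.25. None of 12 T and NK cell genes, 4 B and plasma cell genes or 10 neutrophil and mast cell genes did. Neither did any of 7 liver, 5 kidney or 6 skeletal muscle genes, and Alb, for example, was at 4.26 ± 0.26. The median levels of these 6 lists lay between 3.75 and 4.69. Adipocyte genes were low on the whole, with 1 of 9 above the upper quartile, and differed between libraries. Fabp4, the adipocyte fatty acid binding protein, was at 5.96 in replicate 6, 7.14 in 1, 7.32 in 4, 8.39 in 2, 8.79 in 7, 8.80 in 5 and 8.91 in 3. Replicate 6 was lowest for 8 of the 9 adipocyte genes, against 18.0% of all genes, and the list's median ran from 4.26 there to 6.41 in replicate 3.

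**Figure D2:**
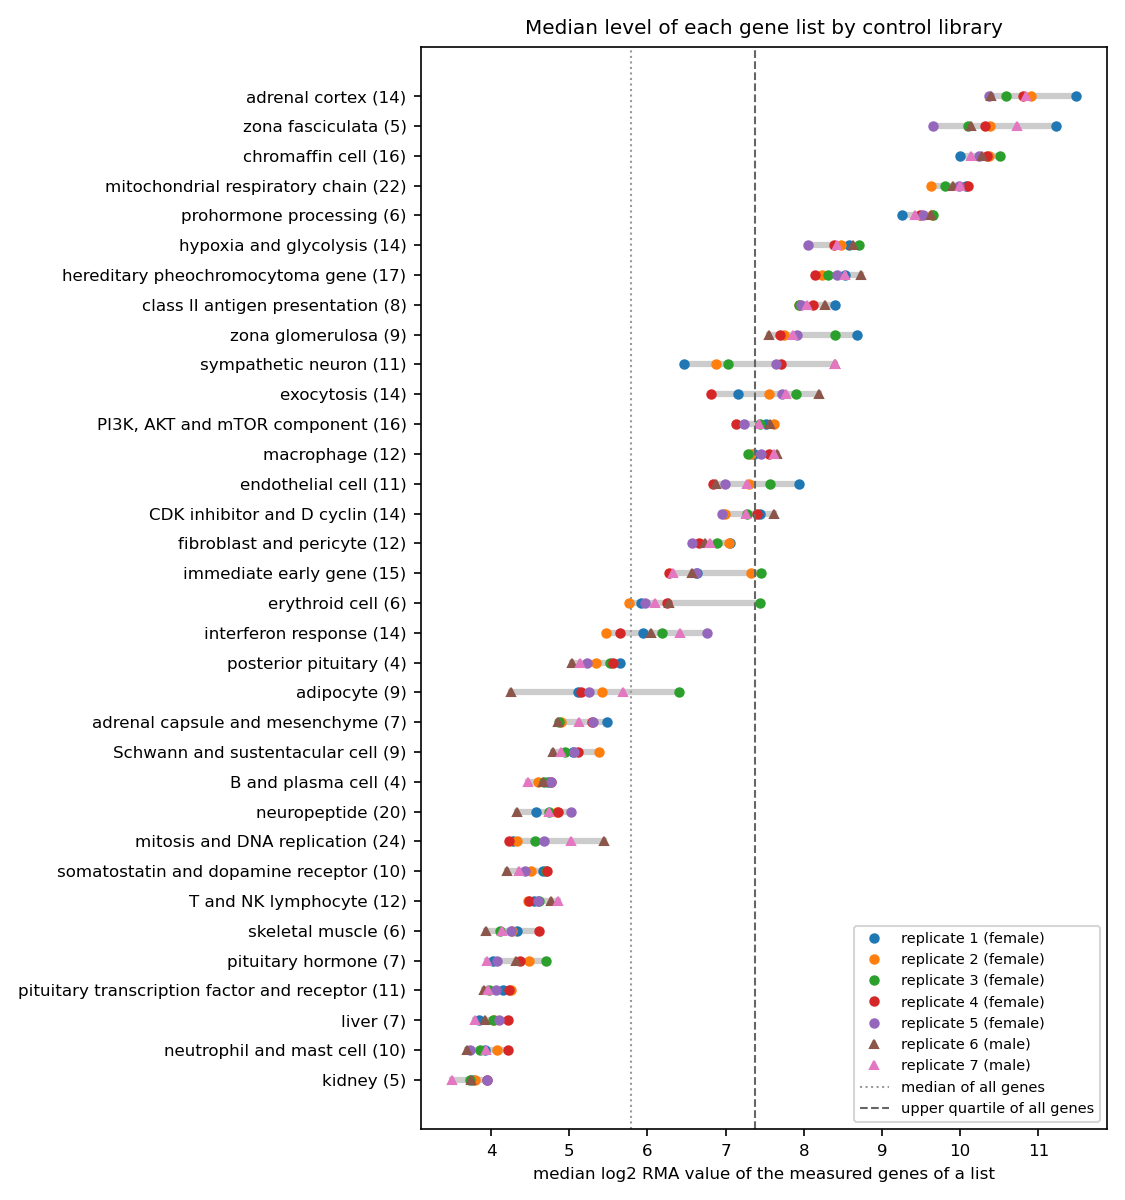
Median log2 RMA value of the measured genes of 34 lists, with the number of genes in brackets; each point is 1 control library and the grey bar spans the lowest to the highest. The adrenal cortex and chromaffin lists stand among the highest in each library. The pituitary transcription factor and receptor, liver and kidney lists stand among the lowest in each. The posterior pituitary list stands higher, from 5.04 to 5.65, and the pituitary hormone list runs from 3.95 to 4.71.

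Genes of prohormone processing and exocytosis mostly lay above the median of all genes. Whether they varied with the chromaffin genes was not tested. All 6 measured prohormone-processing genes lay above the median and 4 above the upper quartile, among them the chaperone gene Scg5 at 10.69 ± 0.50 and the carboxypeptidase gene Cpe at 10.67 ± 0.31. Of 14 exocytosis genes 7 lay above the upper quartile, led by the SNARE gene Snap25 at 10.26 ± 0.55. Replicate 6 was highest for 8 of the 14, against 16.1% of all genes, and replicate 1 lowest for 6, against 14.2%. The priming factor Cadps ran from 6.79 in replicate 1 to 9.24 in replicate 6. Of 20 neuropeptide genes only 4 were above the upper quartile: Npy at 10.93 ± 0.32, Cartpt at 10.36 ± 0.69, galanin (Gal) at 8.94 ± 0.80 and the enkephalin precursor Penk at 7.97 ± 0.29. Agrp was the most variable of them, at 8.67 in replicate 6 and between 5.67 and 6.30 elsewhere. The sympathetic neuron list, with 6 of 11 above the upper quartile, was led by Stmn2 at 9.78 ± 0.42, and its growth cone gene Gap43 ran from 6.32 in replicate 1 to 9.36 in replicate 6.

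The mutated gene itself was measured above the upper quartile. Cdkn1b was at 8.23 in replicate 1, 8.51 in 2, 8.49 in 3, 7.91 in 4, 8.31 in 5, 8.76 in 6 and 8.48 in 7, with a mean of 8.38 ± 0.27. The array reports transcript and not protein or sequence, so these values check neither the mutation nor the genotype label. Of 14 measured genes of CDK inhibitors, D cyclins and their partners, 7 lay above the upper quartile. Cdk4, the partner of the D cyclins, was at 9.44 ± 0.49 and the inhibitors Cdkn2c and Cdkn1c were at 8.18 ± 0.27 and 8.10 ± 0.47. The p21 gene Cdkn1a had the widest spread of the list, from 5.55 in replicate 2 to 8.39 in replicate 6.

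Genes of mitosis and DNA replication were mostly low and differed between libraries. Of 24 measured genes 19 lay below the median of all genes and 2 above the upper quartile, Pcna at 9.29 ± 0.22 and Tyms at 7.73 ± 0.28. Topoisomerase Top2a was at 4.23 in replicate 1, 4.41 in 2, 5.02 in 3, 4.43 in 4, 4.90 in 5, 6.99 in 6 and 6.18 in 7. Cdk1, the mitotic kinase, was at 5.40 in replicate 6 and 4.86 in replicate 7 and between 3.38 and 4.23 in the others. Replicate 6 was highest for 14 of the 24 genes, against 16.1% of all genes, and replicate 7 for 5, against 10.1%. The list's median was 5.45 in replicate 6, 5.02 in replicate 7 and between 4.24 and 4.67 in the rest. Those 2 libraries are the males and had the largest SDs within an array, 2.21 and 2.18, whose part in this was not tested. None of the 24 genes passed the test between the sexes described below.

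**Figure D3:**
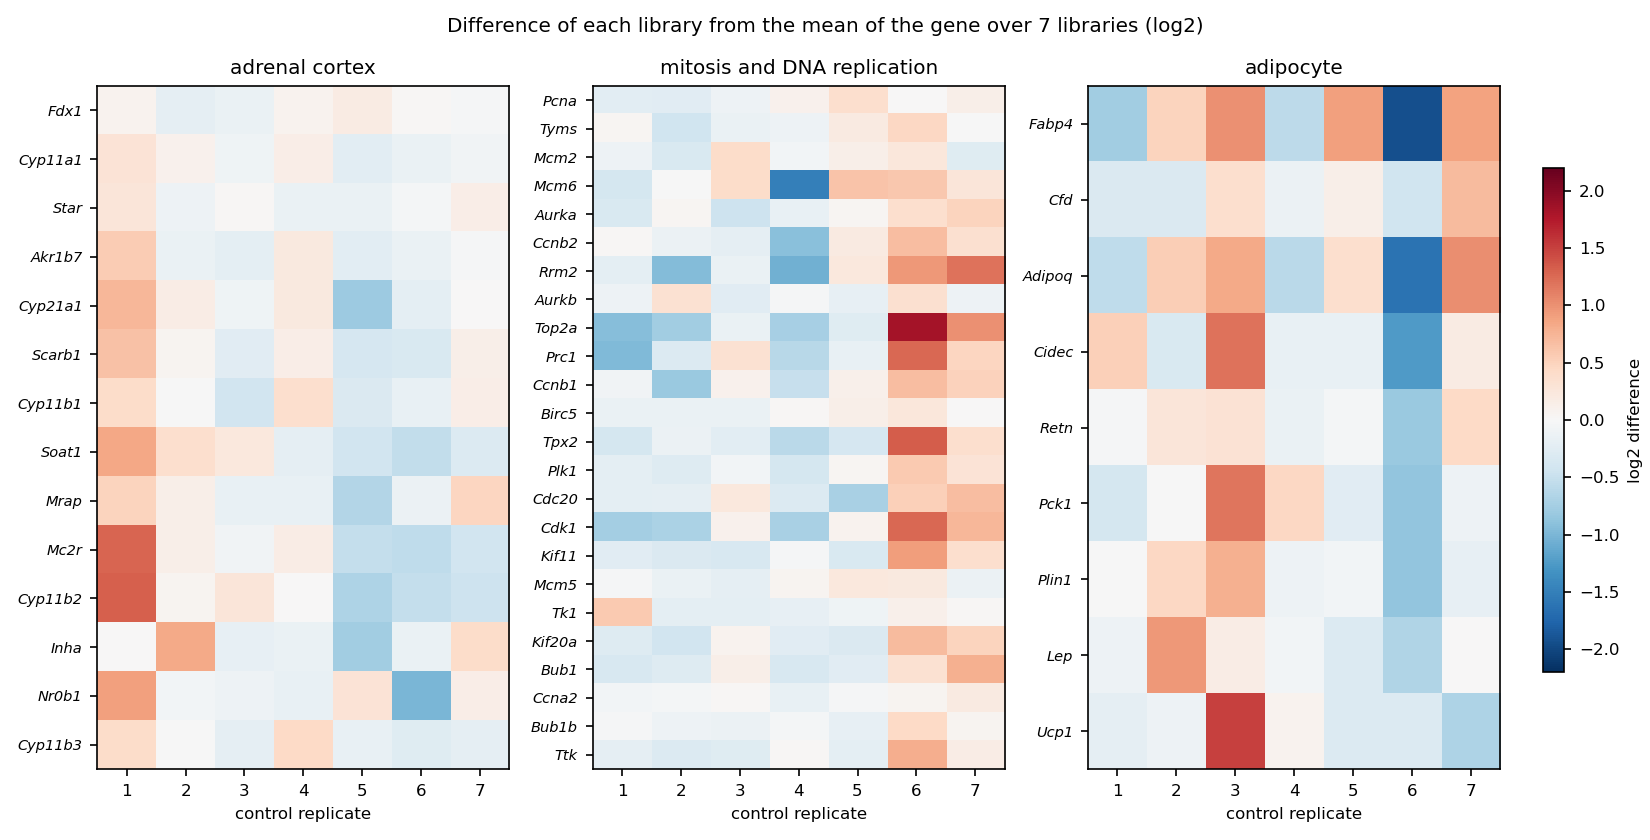
Colour gives the log2 value of each library minus the mean of that gene over 7 libraries, for the adrenal cortex, mitosis and adipocyte lists, with genes ordered by mean level. Replicate 1 is red for most cortex genes, replicates 6 and 7 are red for most mitosis genes, and replicate 6 is blue for most adipocyte genes.

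The target pathway of the drug, and the genes mutated in hereditary pheochromocytoma, were mostly above the median level in these control libraries. All 16 measured PI3K, AKT and mTOR components lay above the median of all genes and 8 above the upper quartile, led by the mTOR activator Rheb at 10.04 ± 0.19. Mtor itself was at 7.32 ± 0.25, Akt1 at 8.15 ± 0.24 and Akt2 at 8.65 ± 0.22. The largest spread was that of the regulatory subunit gene Pik3r3, from 6.75 in replicate 1 to 8.43 in replicate 6. Of 17 hereditary pheochromocytoma genes all lay above the median and 13 above the upper quartile. The 4 succinate dehydrogenase subunits Sdha, Sdhb, Sdhc and Sdhd were at 8.73 ± 0.31, 10.04 ± 0.33, 10.34 ± 0.30 and 9.29 ± 0.27. Epas1, which encodes HIF-2α, was more uneven, at 9.17 in replicate 5, 9.25 in 1, 10.08 in 2, 10.44 in 4, 10.57 in 3, 11.19 in 7 and 11.35 in 6. All 22 respiratory chain genes lay above the upper quartile, with a median of 9.96, and 8 of 14 hypoxia and glycolysis genes did, led by Ldha at 12.04 ± 0.28.

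Spread over the 7 libraries was small for most genes. The median SD was 0.279 on the log2 scale, 88.2% of genes had an SD under 0.5, and 78 genes, or 0.538%, had an SD over 1. Of the 78, 64 lay above the median level and 26 above the upper quartile. The smallest SDs among genes above the upper quartile, from 0.06 to 0.08, were those of Fth1, Ube2d3, Cxcr4, Btbd1, Ppp6r3, Kxd1, Tsc22d3, Reps1, Med1 and Crk. Among the markers, the SD of Chgb was 0.10 and that of Star 0.16, both below the median SD, whereas those of Th and Dbh were slightly above it.

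**Figure D4:**
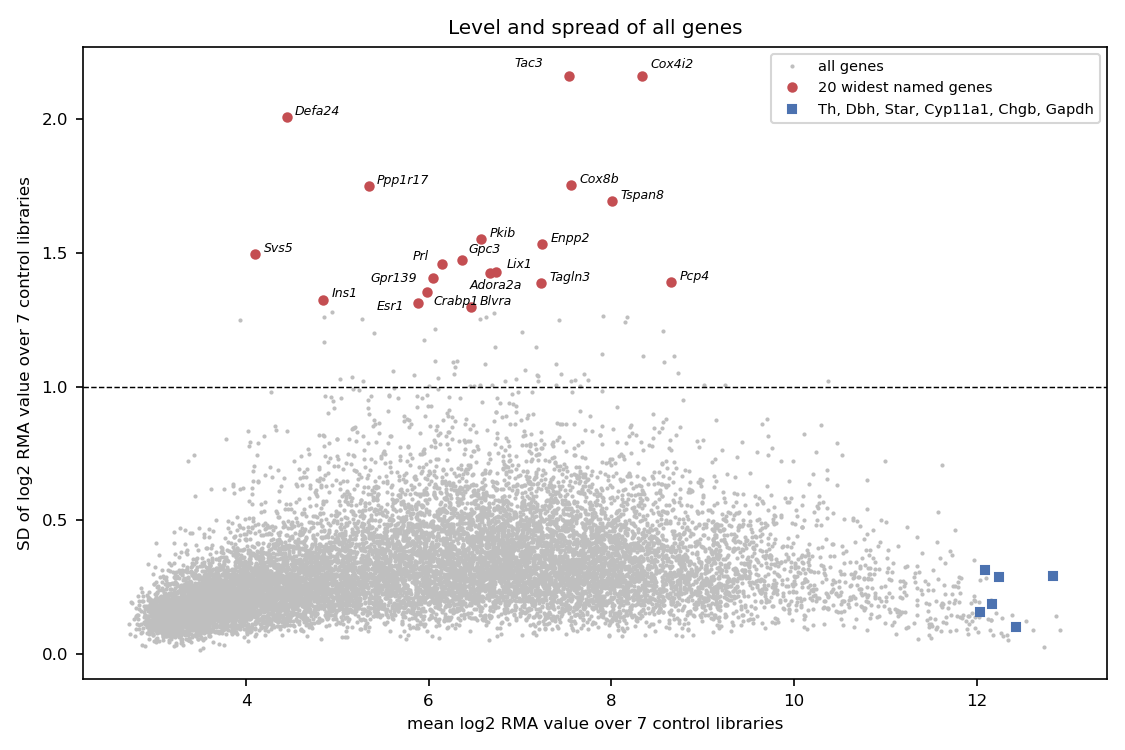
Mean log2 RMA value against SD over the 7 control libraries, 1 point per gene for 14506 genes; red circles are the 20 named genes of largest SD and blue squares are Th, Dbh, Star, Cyp11a1, Chgb and Gapdh. The marker genes lie at the high end of level with SDs up to 0.31, and the dashed line at an SD of 1 has 78 genes above it.

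The widest genes fell into several patterns. Tac3, the neurokinin B precursor, was at 5.31 in replicate 1, 4.93 in 2, 9.39 in 3, 6.87 in 4, 6.46 in 5, 9.74 in 6 and 10.07 in 7, a 35.3-fold range. Cox4i2, a subunit isoform of cytochrome c oxidase, was at 6.56, 5.28, 9.08, 7.68, 7.73, 10.999 and 11.008 in the same order, a 52.9-fold range. In both genes, replicates 3, 6 and 7 were the highest and replicates 1 and 2 the lowest. The membrane protein gene Tspan8, the kinase inhibitor gene Pkib, Lix1, the adenosine receptor gene Adora2a and the calmodulin regulator Pcp4 also had replicates 6 and 7 among their 3 highest. The same held for Gpr139, Tagln3 and Blvra.

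A second pattern was a gene high or low in a single library. In replicate 6, Defa24, an intestinal defensin gene, was at 8.99 against a mean of 3.69 ± 0.07 in the other 6 libraries. Ppp1r17 was at 9.22 there against 4.70 ± 0.40, the lysophospholipase D gene Enpp2 at 10.60 against 6.69 ± 0.45, the glypican gene Gpc3 at 9.55 against 5.84 ± 0.50 and the insulin gene Ins1 at 7.74 against 4.36 ± 0.39. The retinoid binding protein gene Crabp1 was also highest in that library, at 8.72. In replicate 4, the seminal vesicle gene Svs5 was at 7.49 against 3.54 ± 0.13 and the oestrogen receptor gene Esr1 at 8.57 against 5.44 ± 0.62, while the muscle-type oxidase subunit gene Cox8b was at 3.71 against 8.21 ± 0.47. In replicate 2, Prl and the fetuin gene Fetub stood high, Fetub at 7.65 against 4.49 ± 0.50, and Isg15 stood low at 6.06 against 8.98 ± 0.54.

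Further genes of this kind were found in the remaining libraries and in replicate 4. In replicate 1, Rnf135 was high at 7.73 against 5.01 ± 0.68, and Tspan8 and Bex4 were low at 4.93 against 8.52 ± 1.11 and 5.55 against 8.30 ± 0.79. In replicate 3, Rbp7, Samd5, Sprn and the nuclear receptor gene Nr4a1 were 2.06 to 2.18 log2 units above the mean of the others. In replicate 5, Morn2, Tmsb15b2, Prorsd1, Rpa3 and Bex4 were 1.73 to 1.85 units above it, and no gene there differed by more than 2. The largest differences of replicate 7, those of Cox4i2, Tac3, Hpx, Tspan8 and Adora2a, were in genes also high in replicate 6. In replicate 4, the acetyl-CoA transporter gene Slc33a1 was low at 4.88 against 7.85 ± 0.60. Each of these sets rests on 1 library, and no second array of the same tissue was analysed.

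**Figure D5:**
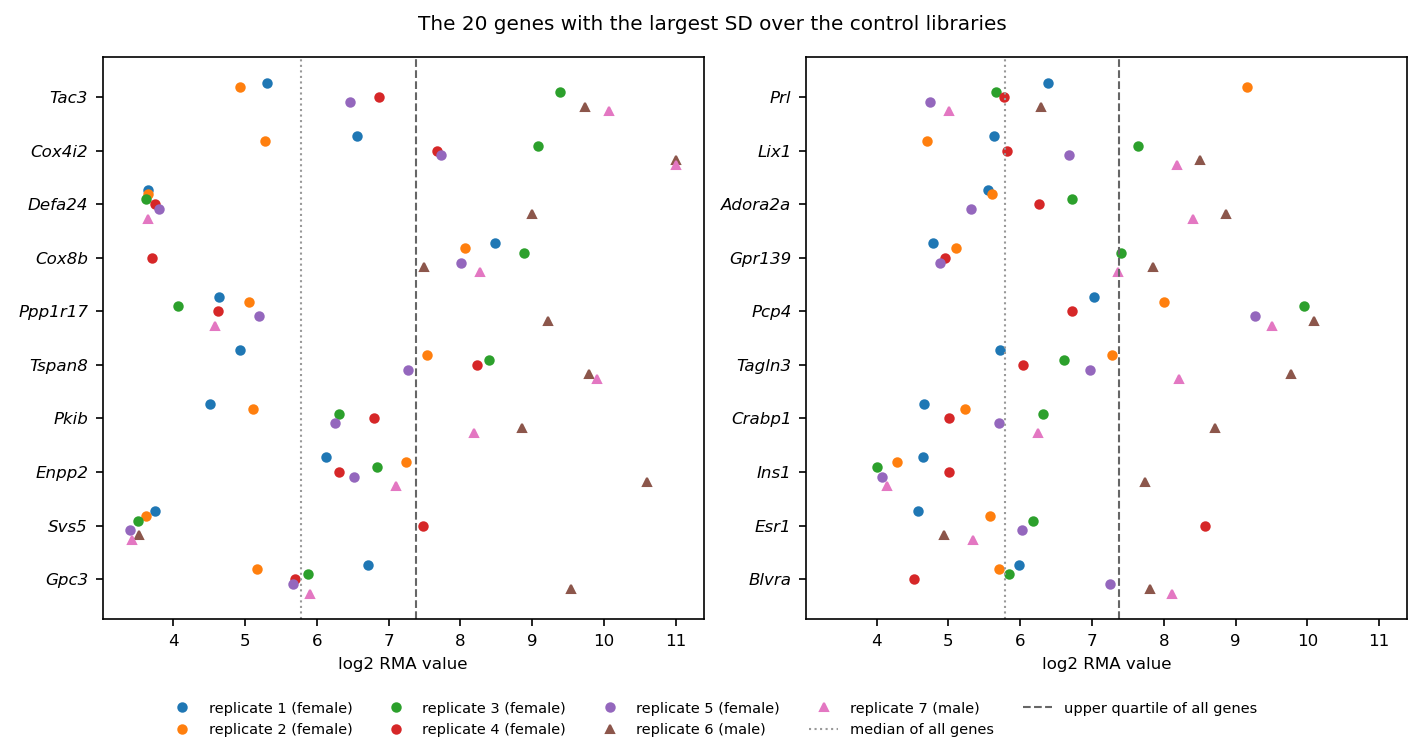
Log2 RMA value of the 20 named genes with the largest SD, 1 point per control library (circles female, triangles male), with lines at the median and upper quartile of all genes. Defa24, Ppp1r17, Enpp2, Gpc3 and Ins1 stand high in replicate 6 only, Svs5 and Esr1 in replicate 4, and Prl in replicate 2.

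Replicate 6 contributed most to the spread. It was the highest library for 35 of the 78 genes with an SD over 1, replicate 5 for 13 and replicate 7 for 10. Over all genes the shares highest in replicates 6, 5 and 7 were 16.1%, 11.8% and 10.1%. The lowest was replicate 2 for 25, replicate 1 for 20 and replicate 4 for 16, against 16.3%, 14.2% and 17% of all genes. In replicate 6, 37 genes lay more than 2 log2 units above the mean of the other libraries, against 0 to 6 in each other library. Without it, 57 genes had an SD over 1, of which 46 were among the 78. Replicates 6 and 7 together lay above all females for 28 of the 78, or 35.9%, against 11.6% of all genes. The 78 were chosen by their spread over these same libraries. The counts of this paragraph follow in part from that choice, and they test neither replicate 6 nor sex.

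The only labelled difference among the control libraries is sex, and 2 males against 5 females were compared with limma. Sparcl1, a secreted matrix protein gene, was at 7.81, 7.80, 8.43, 7.97 and 8.25 in the females and at 10.504 and 10.045 in the males. It was higher in males by 2.22 ± 0.23 on the log2 scale (standard error; limma adjusted p = 0.046). Hpx, which encodes the haem carrier haemopexin, was at 5.75, 5.43, 5.97, 5.74 and 6.36 in females and at 8.04 and 8.62 in males, higher by 2.48 ± 0.26 (limma adjusted p = 0.046). Neither gene's groups overlapped. They were the only genes that passed, 0.0138% of those tested, and none passed in the lower direction. The smallest limma p among genes lower in males belonged to Cryga, Prss22 and Sfrp2, at -1.14, -0.80 and -1.58, each with a limma adjusted p of 0.23. At an unadjusted p under 0.05 there were 1992 genes. Groups without overlap were seen for 11.6% of genes in the higher and 11.1% in the lower direction. An exact permutation p of 2 against 5, doubled for both directions, cannot go below 0.095. No chromaffin, cortex or mitosis gene passed. The median change of the mitosis list was 0.64, with 23 of 24 genes higher in males, against a median of -0.01 over all genes. These genes were measured in the same 2 males, so the count is not one of independent results. Both calls were lost when any of replicates 1, 2, 4, 5 or 6 was left out, and that of Hpx also without replicate 3 or 7. Without replicate 7 the count was 15. Without replicate 6 or 7 there is 1 male, which is assumed to vary like the females, so these 2 fits rest on the spread of the females.

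The titles number the libraries, and in the treated group the dose changes between numbers 4 and 5. The labels do not say what the numbers stand for, and they overlap with sex, since both males are numbered above 5. Numbers 5 to 7 were higher than numbers 1 to 4 for 156 genes, or 1.08%, and lower for 21, or 0.145% (limma, adjusted p under 0.05), together 177 genes or 1.22%. An exact permutation p for groups of these sizes, doubled for both directions, cannot go below 0.057. Blvra, the biliverdin reductase gene, was at 5.99, 5.71, 5.84 and 4.53 in numbers 1 to 4 and at 7.26, 7.81 and 8.12 in numbers 5 to 7, a difference of 2.21 ± 0.35 (limma adjusted p = 0.044). Ankrd37 was at 4.25, 4.36, 4.03 and 4.23 against 6.15, 6.36 and 5.82, a difference of 1.89 ± 0.16 (limma adjusted p = 0.017). Morn2, the replication protein gene Rpa3 and Marchf11 differed by 2.02, 1.77 and 1.70. In the other direction, the cytokine signalling inhibitor gene Cish was at 7.62, 8.37, 7.25 and 7.44 against 5.70, 6.64 and 5.80, lower by 1.62 ± 0.31 (limma adjusted p = 0.049 for a change of -1.62). M6pr, Wwtr1, Tmem150a and Prlhr changed by -1.33, -1.15, -1.02 and -1.01.

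Of the 371 measured genes of all lists 4 passed, a share near the 1.22% of all genes. The macrophage gene Aif1, cytochrome c (Cycs), the neurofilament gene Nefl and the interferon-induced gene Usp18 were higher in numbers 5 to 7, by 1.12, 0.74, 1.12 and 1.42, with limma adjusted p from 0.044 to 0.049. No listed chromaffin, cortex or pituitary gene passed. Of the cortex genes 13 of 14 were lower in numbers 5 to 7, with a median change of -0.32. Of the mitosis genes 24 of 24 were higher, with a median change of 0.50. The median change over all genes was -0.03. Genes of a list were measured in the same libraries, so these counts are not independent results. At an unadjusted p under 0.05 there were 3186 genes, and groups without overlap were seen for 10.9% of genes in the higher and 10.5% in the lower direction. The count fell to 0 when any of replicates 1, 2, 5 or 6 was left out, when sex was a term and in females alone, where 1 library stands against 4, and to 1 without replicate 7. No gene was called by both comparisons, and number and sex share libraries.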

How the data were processed

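RNA was amplified with a whole-transcriptome kit, labelled with biotin and hybridised to Affymetrix rat gene arrays, per the labels' protocols. The authors deposited log2 values for 29214 probe sets and 17 arrays. They were made with RMA in Affymetrix Expression Console 1.3.0.187, per the submitters' processing notes. The number of arrays limits the precision. Probe sets were named through the platform annotation: 15310 had 1 gene symbol, 323 several and 13581 were not listed. For each of 14506 genes the probe set with the highest mean over the 7 controls was kept (527 genes had several). Comparisons used limma 3.58.1 in R 4.3.3 with a Benjamini-Hochberg adjusted p threshold of 0.05 over all genes. The code was tested on simulated data. Exact permutation tests were used for gene pairs.

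Genes were named by level (25), largest spread (20), smallest spread above the upper quartile (10), each library's difference (5), list extremes and the largest calls. Symbols of ribosomal proteins and of provisional genes were set aside, as were Y-linked and X-inactivation genes. Some list members were named outside this rule after their values were seen. The control libraries and gene lists were chosen with earlier results of these data known. Near-identical globin and Cyp11b probe targets are uncertain. Alternatives covered normalization, variance model, weights, filters, probe set choice and left-out libraries.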

Additional observations from a re-analysis of the deposited data

Results flagged for a closer look

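A library was listed here when its gap to the nearest of the other 6 was over 0.568 of the whole range (Dixon's 95% critical value). Of 103 genes and list medians tested 15 passed. For items chosen without regard to their values, chance flags about 1 in 20. Many of the 103 were chosen for a large spread over these same libraries, so that rate does not apply to them. The share describes that choice too and is no test for an excess. Replicate 6 accounted for 7 and replicate 7 for none.

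In replicate 6, Defa24 was highest at 8.995, Enpp2 at 10.599, Gpc3 at 9.547, Ppp1r17 at 9.224, Crabp1 at 8.719 and Ins1 at 7.739, and Dcn was lowest at 11.245. In replicate 4, Esr1 was highest at 8.573 and Svs5 at 7.486, and Cox8b was lowest at 3.709. In replicate 3, the median of the erythroid list was highest at 7.444, against 6.28 in the next library, and Fth1 was lowest at 12.186. Prl was highest in replicate 2 at 9.164. B2m was highest in replicate 1 at 12.688, and Th was lowest in replicate 5 at 11.462. The nearest other values were 6.38 for Prl and 11.99 for Th.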

How the results depend on the processing

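No paired analysis was possible because every comparison is among control libraries, whose title numbers do not repeat. The pair Th and Pnmt was not run, since Pnmt is not analysed here. All 13 chromaffin and 11 cortex genes stayed above the upper quartile under every alternative run, and at least 87 of the 100 highest genes were shared. The 78 genes with an SD over 1 became 57 to 98 with a library left out. Of the 20 widest genes, 11 were shared without replicate 6 (11 to 19 over all left-out libraries) and 7 with the median absolute deviation. The 2 sex calls became 0 after quantile normalization, with robust eBayes, with the title number set as a term or random block and in numbers 5 to 7 only (1 female, assumed to vary like the males), 5 after median centring, 6 with either filter on dim genes, 7 with a trended prior variance and 85 with array weights. They ran from 0 to 15 with a library left out. The 177 title-number calls became 2 after quantile normalization, 1 after median centring, 80 with a trended prior variance, 111 with robust eBayes, 966 with array weights and 0 with sex as a term or in females only. They ran from 0 (without replicate 1, 2, 5 or 6) to 125 (without replicate 3) with a library left out, with 1 without replicate 7 and 86 without replicate 4. The causes were not tested. Over all settings, 130 checks of single genes lost their call, 3 gained one, 194 kept their side and none reversed.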

Other observations

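Interferon-induced genes differed between libraries. Of 14 measured genes 3 lay above the upper quartile, led by Ifi27l2b at 11.57 ± 0.42 (log2, mean ± SD, n = 7). The ubiquitin-like modifier gene Isg15 was at 6.06 in replicate 2 and between 8.30 and 9.87 in the others, and the chemokine gene Cxcl10 ran from 5.92 in replicate 2 to 8.60 in replicate 5. Replicate 2 was lowest for 8 of the 14 genes, against 16.3% of all genes, and replicate 5 highest for 7, against 11.8%. Immediate early genes differed too. Egr1 was at 7.38 in replicate 1, 10.15 in 2, 9.36 in 3, 7.81 in 4, 8.42 in 5, 6.65 in 6 and 7.29 in 7, and Nr4a1 was highest in replicates 3 and 2 at 8.96 and 8.26. Replicate 3 was highest for 7 of 15 such genes, against 11.4% of all genes, and replicate 2 for 5, against 13.9%. Replicate 7 was lowest for 7, against 11.7%.

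Globin genes were highest in replicate 3, with Hbb at 11.62 against 9.76 to 11.25 elsewhere, and Alas2, the erythroid haem synthesis gene, was at 6.17 there against 4.57 to 5.40. Of 10 somatostatin and dopamine receptor genes 1 lay above the upper quartile, the dopamine receptor Drd2 at 7.90 ± 0.55. The somatostatin receptor Sstr2 was at 6.70 ± 0.48, and Sstr1 ran from 3.64 in replicate 2 to 7.48 in replicate 6.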
